A study of Mus musculus with 10 samples.

Results

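The platelet transcripts followed here are those of 10 genes: Pf4, Ppbp, Itga2b, Itgb3, Gp1ba, Gp9, Gp6, Treml1, Selp and Pecam1. They were taken by gene symbol from a raw count table of 48526 genes, all 10 were found, and all 10 passed the filter on low counts. The libraries came from the aorta of mice whose strain is given as ApoE in both groups, with no further genotype, and were labelled aortic endothelial cells isolated by fluorescence-activated sorting. The 5 stressed libraries came from mice put through acute mental stress lasting 3 h a day on 3 days in a row, and the 5 non-stressed libraries from mice that were not. The sources used here do not give age, sex or the number of animals behind a library. Nothing says whether replicates came from separate animals, so every p-value refers to spread among these libraries only, which may be technical. The question followed here is whether the 10 transcripts varied together from library to library.

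Platelets are fragments of megakaryocytes. They have no nucleus and carry RNA inherited from the parent cell, so megakaryocyte-specific transcripts serve as markers of platelets in blood and in tissues that hold blood. Their surface carries the fibrinogen receptor, the von Willebrand factor receptor and the collagen receptor, and their alpha granules store chemokines and adhesion molecules that are released or exposed when a platelet is activated. Some of these molecules are not unique to platelets: P-selectin is also stored in endothelial cells, and PECAM-1 is also found on endothelial cells and leukocytes.

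The endothelial label was borne out by only part of its markers, and monocyte markers stood far above endothelial ones. Of 19 endothelial genes, 15 had reads in some library and 7 in all 10. Among those 7, Vwf had a median of 37.5 CPM (counts per 1000000 counts of a library), Pecam1 30.9, Icam2 27.7, Eng 24.2 and Fabp4 12.2 CPM, of which several are also made by platelets or leukocytes. Tek, Emcn, Cldn5 and Ptprb, genes of endothelial cells, had 0 reads in all 10 libraries, which allows at most 0.0785 to 0.166 CPM (taken as 3 counts, counting error only). Cdh5, which encodes VE-cadherin, stood at 0 to 0.994 CPM. The 10 monocyte markers summed to 22153 to 34139 CPM in non-stressed and 26823 to 34055 CPM in stressed libraries. The 19 endothelial genes summed to 92.7 to 164 CPM in non-stressed and 100.6 to 175 CPM in stressed libraries. Total counts ran from 18020220 to 38237346 per library. In this bulk RNA, fewer cells of a type and less RNA per cell cannot be told apart.

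Both chemokine genes lie side by side on chromosome 5 on the plus strand of mm10, with 2371 bases between the end of Ppbp (ENSMUSG00000029372, 90768518 to 90770063) and the start of Pf4 (ENSMUSG00000029373, 90772435 to 90773383). Upstream sequences were in the RefSeq promoter table for GRCm38.p6 for 8 of the 10 genes, those other than Itgb3 and Pecam1. The following 4 are shown because they span the granule chemokines and the von Willebrand factor receptor; each is the 250 bases before the annotated start, 5′ to 3′. Capitals mark GATA words (AGATAA or TGATAA) and ETS words (AGGAAG or CGGAAG), searched on both strands.
Pf4 promoter (chr5:90772185-90772434, plus strand): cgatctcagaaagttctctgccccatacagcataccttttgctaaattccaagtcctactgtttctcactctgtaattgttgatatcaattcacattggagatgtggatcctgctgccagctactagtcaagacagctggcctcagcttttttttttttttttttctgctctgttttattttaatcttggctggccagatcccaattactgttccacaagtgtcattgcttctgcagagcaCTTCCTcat
Ppbp promoter (chr5:90768268-90768517, plus strand): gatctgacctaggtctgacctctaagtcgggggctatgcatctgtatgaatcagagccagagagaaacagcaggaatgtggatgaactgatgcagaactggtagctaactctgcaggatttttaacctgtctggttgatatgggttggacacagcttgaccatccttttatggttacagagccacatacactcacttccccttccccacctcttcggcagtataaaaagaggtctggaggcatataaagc
Gp1ba promoter (chr11:70638872-70639121, plus strand): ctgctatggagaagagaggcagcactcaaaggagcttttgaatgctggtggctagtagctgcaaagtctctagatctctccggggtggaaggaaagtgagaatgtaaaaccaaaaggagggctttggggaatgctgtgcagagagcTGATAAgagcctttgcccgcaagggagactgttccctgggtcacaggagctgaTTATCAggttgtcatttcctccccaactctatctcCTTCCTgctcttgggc
Gp9 promoter (chr6:87777820-87778069, plus strand): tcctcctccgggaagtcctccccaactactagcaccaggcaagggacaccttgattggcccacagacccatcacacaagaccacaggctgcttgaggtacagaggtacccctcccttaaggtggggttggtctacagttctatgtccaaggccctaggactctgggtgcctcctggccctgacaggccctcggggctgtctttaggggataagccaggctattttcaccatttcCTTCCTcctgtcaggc
GATA factors and ETS factors are known regulators of megakaryocyte genes. An ETS word began 9 bases before the start of Pf4 (position -9) and 16 bases before the starts of Gp1ba and Gp9 (position -16 in both). Gp1ba also held GATA words at -104 and -51, and the Ppbp window held neither word. Over the 8 genes, 5 windows held an ETS word and 2 a GATA word, against 39.2% and 16.6% of the 32851 windows of the table. The core word shared by NFE2 and AP-1, TGAGTCA, was in 0 of the 8 windows against 4.46% of all, and the RUNX word TGTGGT in 1 against 14%. These words are letters in a window and show no binding.

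Read per exon length, the order of the levels followed the granule chemokines first. Median levels were 49.2 CPM per 1000 exon bases for Ppbp, 25.4 for Pf4, 11.9 for Gp9, 9.36 for Itga2b, 7.85 for Itgb3, 5.23 for Treml1, 4.97 for Pecam1, 1.86 for Gp1ba, 1.20 for Gp6 and 0.258 for Selp, with exons of all transcripts of a gene merged. Ppbp lay above Pf4, and Pf4 above Gp9, in all 10 libraries. Itga2b lay above Itgb3, its partner in the receptor, in 7 of 10 libraries, and Treml1 above Pecam1 in 5 of 10, so that neither pair can be ordered.

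Pf4 encodes platelet factor 4, a chemokine of the alpha granule. It stood at 11.9, 20.6, 26.7, 7.47 and 9.29 CPM in non-stressed replicates 1 to 5 and at 34.9, 25.2, 16.6, 12.9 and 19.98 CPM in stressed replicates 1 to 5. Non-stressed replicate 4 was lowest and stressed replicate 1 highest, 4.68-fold apart, and the groups overlapped. Ppbp encodes pro-platelet basic protein, the precursor of further granule chemokines. Its levels were 44.2, 62.3, 75.8, 26.3 and 17.8 CPM in the non-stressed and 76.4, 63.5, 62.3, 38.2 and 40.3 CPM in the stressed libraries. Non-stressed replicates 4 and 5 were again the lowest, and non-stressed replicate 3 and stressed replicate 1 the highest.

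Itga2b (chromosome 11, 102453297 to 102470122, minus strand) and Itgb3 (chromosome 11, 104608000 to 104670476, plus strand) encode the chains of integrin alpha-IIb beta-3, the fibrinogen receptor. The alpha-IIb chain is specific to the megakaryocyte lineage among mature cells, while beta-3 also pairs with alpha-V on other cells. Itga2b stood at 45.1, 57.0, 81.8, 24.3 and 20.1 CPM in non-stressed replicates 1 to 5 and at 89.7, 95.5, 66.8, 38.2 and 43.5 CPM in stressed ones. Non-stressed replicates 4 and 5 were lowest and stressed replicates 1 and 2 highest, with non-stressed replicate 3 close behind. Itgb3 ran from 34.3 to 76.7 CPM in non-stressed and from 39.1 to 84.5 CPM in stressed libraries, a narrower spread of 2.46-fold between the extremes.

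The receptor for von Willebrand factor was represented by Gp1ba (chromosome 11, 70639122 to 70642036, plus strand), its ligand-binding chain, and Gp9 (chromosome 6, 87778072 to 87779768, plus strand), a small subunit of the same complex. Gp1ba stood at 2.38, 6.12, 8.56, 2.28 and 3.76 CPM in the non-stressed and 13.9, 7.86, 5.77, 3.35 and 4.35 CPM in the stressed libraries. Its counts were low, 58 in each of 2 libraries, where the interval of counting error ran from 1.81 to 3.08 CPM and from 1.73 to 2.95 CPM. Gp9 stood at 9.60, 12.1, 15.3, 5.86 and 6.96 CPM in the non-stressed and 11.3, 20.1, 19.9, 6.56 and 9.08 CPM in the stressed libraries. Non-stressed replicate 4 and stressed replicate 4 were among the 3 lowest for both genes, but stressed replicate 1, which was highest for Gp1ba, was not among the 3 highest for Gp9.

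Gp6 (chromosome 7, 4363965 to 4397744, minus strand) encodes glycoprotein VI, the collagen receptor that starts platelet activation at exposed matrix. It stood at 6.11, 7.51, 9.50, 1.49 and 2.57 CPM in non-stressed replicates 1 to 5 and at 9.97, 8.65, 7.05, 3.35 and 7.09 CPM in stressed ones. Treml1 (chromosome 17, 48359916 to 48367176, plus strand) encodes TLT-1, a receptor held in alpha granules until activation, and ran from 3.03 to 13.7 CPM in the non-stressed and from 4.47 to 9.93 CPM in the stressed libraries. Both were lowest in non-stressed replicate 4, and Gp6 spanned 6.68-fold.

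Selp and Pecam1 are the members shared most with other cells. Selp (chromosome 1, 164115264 to 164150026, plus strand) encodes P-selectin, the granule adhesion molecule that binds PSGL-1 on leukocytes. It stood at 0.985, 1.098, 1.28, 1.18 and 1.32 CPM in the non-stressed and at 9.001, 4.04, 0.222, 0.928 and 0.343 CPM in the stressed libraries. The non-stressed values lay within each other's intervals of counting error (0.631 to 1.47 CPM for the lowest), whereas the stressed ones held both the highest and the lowest levels of all 10. Its exons overlap 2 genes of the opposite strand, Gm16587 and Gm16548, over 624 bases, and the sources used here do not state whether counting used strand, which makes its counts uncertain.

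Pecam1 (chromosome 11, 106654217 to 106750628, minus strand) encodes PECAM-1, a junction and adhesion molecule. It stood at 39.8, 46.8, 44.9, 19.1 and 18.02 CPM in non-stressed replicates 1 to 5 and at 32.4, 37.5, 19.7, 29.5 and 12.2 CPM in stressed ones. Non-stressed replicate 2 was highest and stressed replicate 5 lowest, while non-stressed replicates 3, 4 and 5 took places 2, 8 and 9 of 10, near their places for the genes above.

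**Figure D1:**
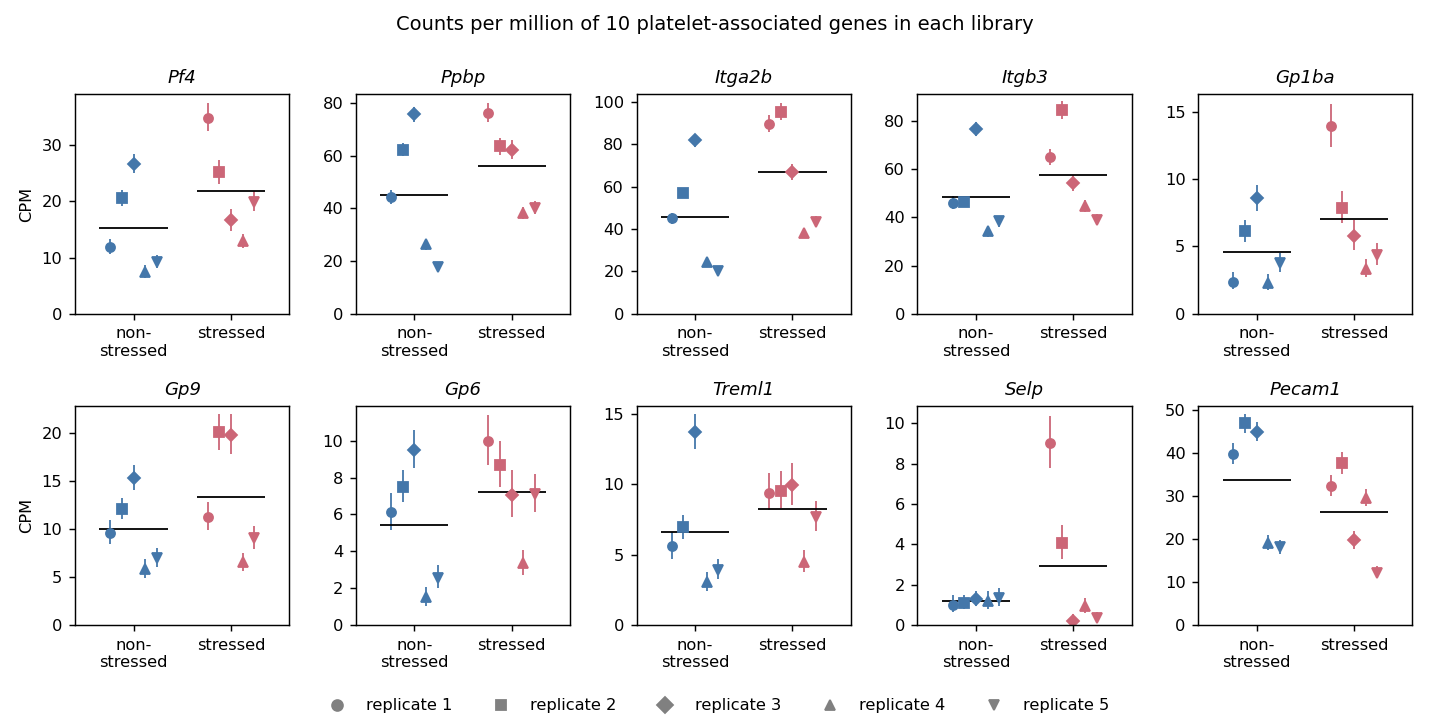
Level of each of the 10 genes in CPM (vertical axis, from 0) in the 5 non-stressed (blue) and 5 stressed (red) libraries, with a marker shape per replicate number, bars for the 95% Poisson interval of the count and a black line for the group mean. Replicate 4 of the non-stressed group is lowest for Pf4, Itgb3, Gp1ba, Gp9, Gp6 and Treml1, while the non-stressed values of Selp lie together between 0.985 and 1.32 CPM.

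The variation between libraries was larger than counting error for each gene. The coefficient of variation over the 10 libraries was 46.6% for Pf4, 40.0% for Ppbp, 47.3% for Itga2b and 32.2% for Itgb3, where counting alone gives 5.07%, 3.03%, 2.94% and 2.80%. It was 61.1% for Gp1ba (9.41% from counting), 44.7% for Gp9 (6.19%), 46.4% for Gp6 (9.27%) and 44.4% for Treml1 (7.91%). Selp varied by 131% against 23.7%, and Pecam1 by 40.8% against 3.99%.

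The 8 genes from Pf4 to Treml1 varied together across libraries. Correlations are of log2(CPM + 0.5) over the 10 libraries, with two-sided permutation tests and Benjamini-Hochberg adjustment over the 45 pairs of the 10 genes. Among the 28 pairs of the 8 genes, Pearson's r ran from 0.661 (Gp1ba and Gp9) to 0.967 (Ppbp and Itga2b) with a median of 0.840, and Spearman's rho from 0.697 to 0.988 with a median of 0.867. By Pearson's r 27 of the 28 passed an adjusted p of 0.05, all but Gp1ba with Gp9 (adjusted p = 0.0652), and by Spearman's rho also 27, all but Pf4 with Gp9 (adjusted p = 0.0508). With the 2 libraries farthest from the median of the first gene of each pair left out, r ran from 0.438 to 0.958 with a median of 0.816. With each group's mean subtracted, so that a difference between stressed and non-stressed libraries cannot contribute, r ran from 0.616 to 0.967 with a median of 0.823, and 25 of the 28 passed by exact permutation within the groups. Within a library all genes share one scale, since each count is divided by the same total, which can itself make genes move together.

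Gp6 followed Pf4 most closely of the members, with r = 0.922 (adjusted p = 0.00075) and rho = 0.988 (adjusted p = 0.00045, from the smallest p of 1e-05 that these permutations can give). Gp1ba had r = 0.919 (adjusted p = 0.00225) and rho = 0.952, and Itga2b r = 0.910 (adjusted p = 0.00309) and rho = 0.867. The value for Treml1 was r = 0.888 (adjusted p = 0.0039), with rho = 0.806, and that for Ppbp, the chromosomal neighbour of Pf4, r = 0.872 (adjusted p = 0.00454), with rho = 0.927. Itgb3 had r = 0.792 (adjusted p = 0.0153) and rho = 0.842. Gp9 stood at the edge of the threshold, with r = 0.692 (adjusted p = 0.0496) and rho = 0.697; it missed the threshold when any of 8 of the 10 libraries was left out, with r down to 0.582 (adjusted p = 0.159 by exact permutation) without non-stressed replicate 4, and passed only without stressed replicate 1 or stressed replicate 3 (adjusted p = 0.0275 and 0.0222 by exact permutation). Without non-stressed replicate 4 Itgb3 also missed the threshold, at r = 0.729 (adjusted p = 0.0557 by exact permutation).

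Leaving out the 2 libraries farthest from the median of Pf4, non-stressed replicates 4 and 5, gave r of 0.832 for Gp6, 0.958 for Gp1ba, 0.824 for Itga2b, 0.748 for Treml1, 0.794 for Ppbp, 0.657 for Itgb3 and 0.438 for Gp9.

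Selp and Pecam1 were not correlated with Pf4 at the threshold. Selp had r = 0.488 (adjusted p = 0.201) and rho = 0.370 (adjusted p = 0.333), and without stressed replicate 1 its r was 0.155. Pecam1 had r = 0.418 (adjusted p = 0.270) and rho = 0.503 (adjusted p = 0.189), and with group means subtracted r = 0.635 (adjusted p = 0.103 by exact permutation within groups). Without non-stressed replicates 4 and 5, the r with Pf4 was 0.688 for Selp and 0.140 for Pecam1. Over the 8 genes, r ran from 0.128 to 0.611 with Selp and from 0.361 to 0.610 with Pecam1, and 0 of these 16 pairs passed by either coefficient. With group means subtracted, 3 of the 8 pairs with Pecam1 passed, those with Itga2b (r = 0.787), Ppbp (0.769) and Itgb3 (0.760), each at an adjusted p of 0.0338 by exact permutation, and 0 of the 8 with Selp. Between Selp and Pecam1 themselves r was 0.432 (adjusted p = 0.270). Whether these correlations differ from those among the 8 genes was not tested.

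**Figure D2:**
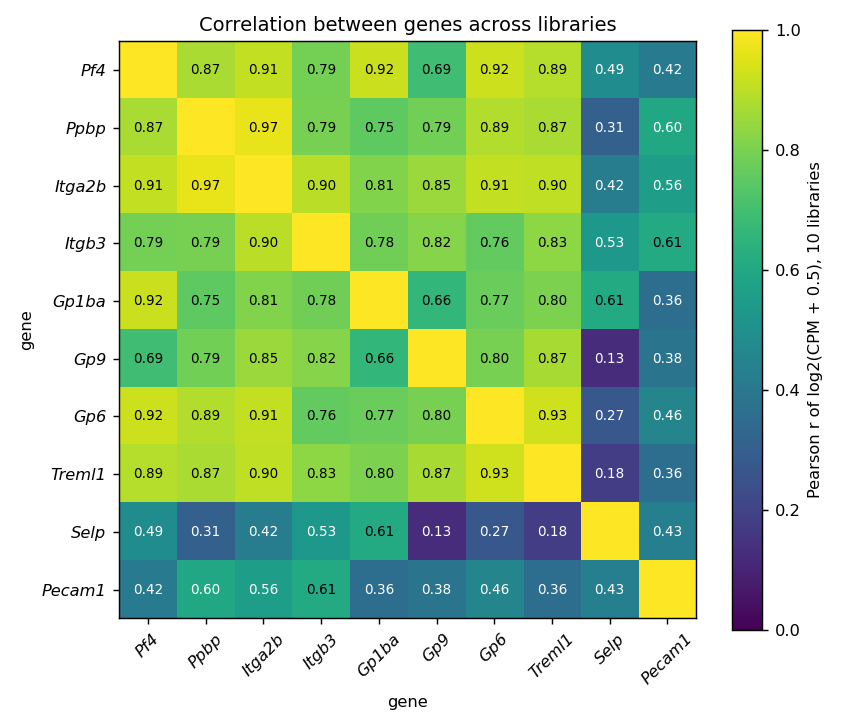
Pearson's r of log2(CPM + 0.5) over 10 libraries for each pair of the 10 genes, in numbers and colour (dark at 0, yellow at 1). The block from Pf4 to Treml1 holds values from 0.66 to 0.97, and the rows of Selp and Pecam1 values from 0.13 to 0.61.

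**Figure D3:**
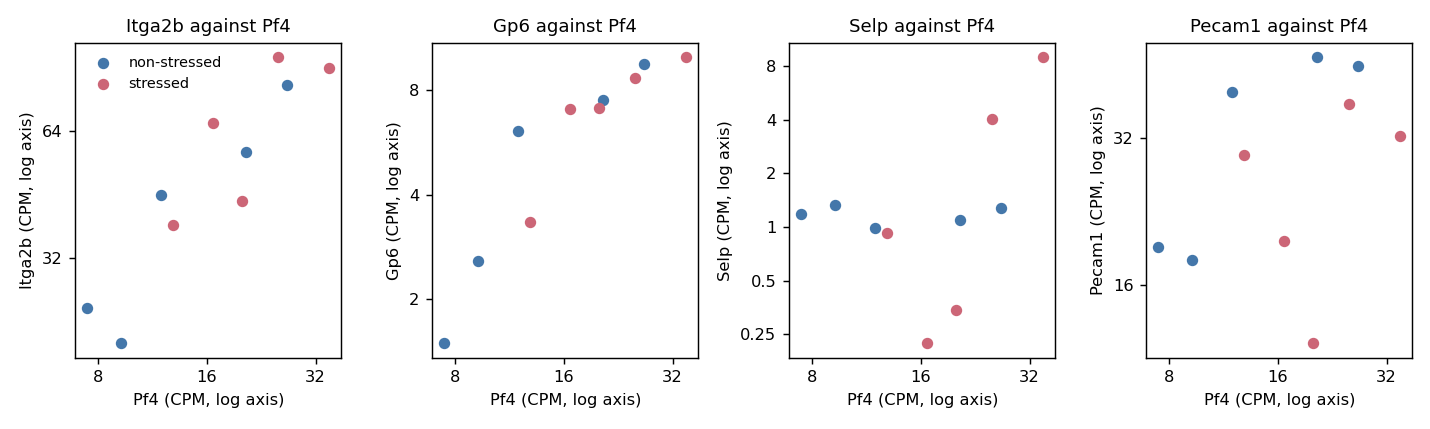
Level of Itga2b, Gp6, Selp and Pecam1 (vertical, CPM, log axis) against Pf4 (horizontal, CPM, log axis) in each of the 5 non-stressed (blue) and 5 stressed (red) libraries. Itga2b and Gp6 rise with Pf4 (r = 0.910 and 0.922), while for Selp the libraries spread apart at high Pf4 and Pecam1 shows a loose cloud (r = 0.488 and 0.418).

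The order of libraries was shared across the 8 genes. Non-stressed replicate 3 and stressed replicate 2 were among the 3 highest libraries for all 8 genes, and stressed replicate 1 for 6 of 8. Non-stressed replicate 4 was among the 3 lowest for all 8 genes, non-stressed replicate 5 for 7 and stressed replicate 4 for 6. In non-stressed replicates 4 and 5 Pecam1 took places 8 and 9 of 10 as well, but Selp took places 5 and 3.

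Summed over the 8 genes, the level was 102.7 to 308 CPM in the non-stressed and 152 to 315 CPM in the stressed libraries, or 0.0103% to 0.0315% of each total. The sum varied 3.06-fold between libraries (coefficient of variation 39.2%), while the share of each gene in it had a smaller coefficient of variation. By range, however, the share of Gp1ba varied more than the sum, 3.225-fold (1.39% to 4.49%), and that of Gp6 2.92-fold (1.42% to 4.14%). Itga2b made up 19.6% to 30.3% of the sum (coefficient of variation 11.5%), Ppbp 17.3% to 28.4% (13.05%), Itgb3 20.9% to 37.3% (20.1%) and Pf4 6.86% to 11.7% (19.2%). The share of Itgb3 was highest in non-stressed replicate 5, where the sum was lowest. For the rarer genes the coefficients were 31.7% for Gp1ba, 26.1% for Gp6, 22.6% for Gp9 and 18.1% for Treml1, the last below those of Itgb3 and Pf4.

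**Figure D4:**
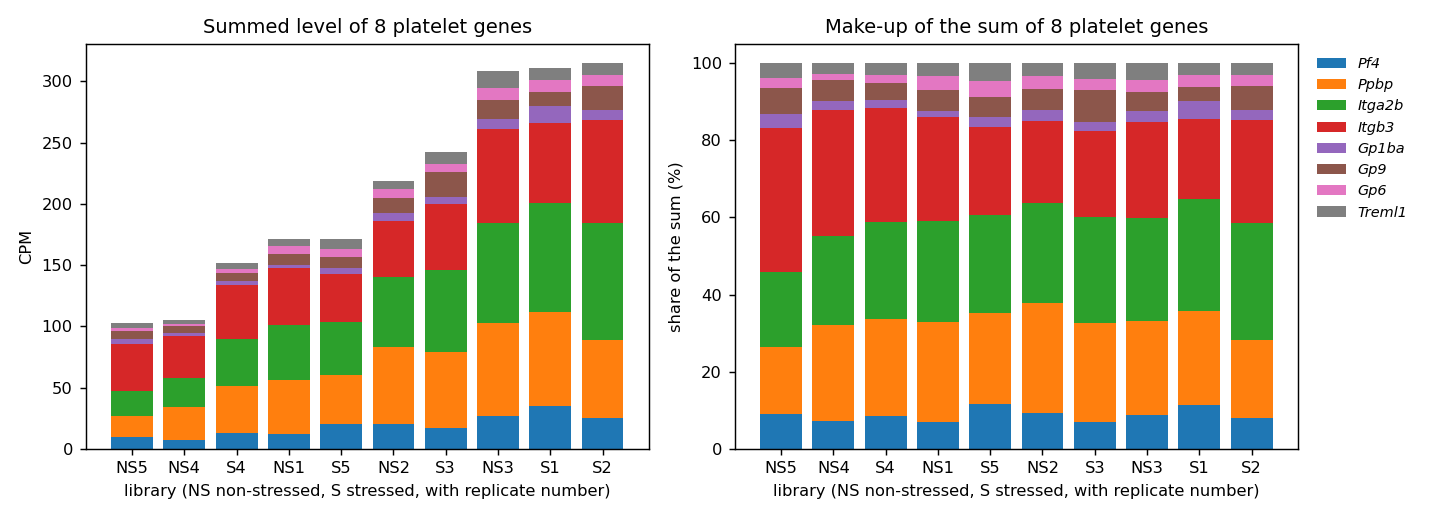
Left, summed level of 8 platelet genes in CPM (bars from 0) in each library, ordered from lowest to highest sum, NS for non-stressed and S for stressed with the replicate number; right, the share of each gene in that sum in percent. The sum rises from 102.7 to 315 CPM, while the share of Itga2b stays between 19.6% and 30.3% and that of Gp1ba runs from 1.39% to 4.49%.

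Set against all genes tested, the members lay high in likeness to Pf4. Of the 13333 other genes, 84 had an r of 0.8 or more with Pf4, which is 0.63%, and the median r was close to 0. These 84 were 5 members, 12 other genes of the platelet and megakaryocyte lists and 67 genes outside those lists. Of the 9 other members 5 reached 0.8 (Gp6, Gp1ba, Itga2b, Treml1 and Ppbp). They took places 7, 8, 10, 16 and 24 among the 13333 genes, Itgb3 place 97, Gp9 332, Selp 1512 and Pecam1 2116. With a library left out that share was 0.638% to 2.03%. It was 2.03% without non-stressed replicate 1, 0.96% without non-stressed replicate 5, 1.04% without stressed replicate 3 and 1.1% without stressed replicate 5. An r of 0.8 is reached more easily over 9 libraries than over 10, so these shares are not alike in measure. Whether the share rested on single libraries was not tested.

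Of the 15 genes outside the members with the highest r with Pf4 (r from 0.880 to 0.945 over 10 libraries, 0.767 to 0.931 without the 2 libraries farthest from the median of Pf4), 5 belonged to the platelet lists. Clec1b, which encodes the podoplanin receptor CLEC-2, had r = 0.944 at a median of 13.4 CPM. Gng11, a G protein gamma subunit, had 0.934, Nrgn, which encodes the calmodulin-binding protein neurogranin, 0.925, Myl9, a regulatory myosin light chain, 0.913, and Ctla2a, a cysteine protease inhibitor, 0.901. The other 10 were Basp1 (0.945), Dap (0.934), Ctla2b (0.933), Ctbp1 (0.901), Ovgp1 (0.891), Mllt1 (0.887), Nipa2 (0.886), Itga6 (0.886), Fam53b (0.880) and Hectd3 (0.880). Itga6 encodes the alpha chain of a laminin receptor that platelets carry. Ctla2a and Ctla2b are close relatives that can share reads, so their counts are uncertain. Several of these genes varied little: Ctbp1, a transcriptional corepressor, ran only from 175 to 213 CPM, against 5.50 to 19.3 CPM for Clec1b.

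The 4 platelet and megakaryocyte lists held 67 genes besides the members, of which 61 passed the filter. Of these 61, 12 had an r of 0.8 or more with Pf4, and their median r was 0.473. Among the receptors 5 of 17 did, including Clec1b, the ADP receptor gene P2ry12 (r = 0.874), the collagen-binding integrin gene Itga2 (0.831) and Gp5 (0.807), a further subunit of the von Willebrand factor receptor. Gp1bb, the remaining subunit of that receptor, had 0.648. Among the signalling and cytoskeletal genes 5 of 21 did, namely Gng11, Nrgn, Myl9, Ctla2a and Alox12, the platelet lipoxygenase (0.864), while Tubb1, the platelet beta-1 tubulin, had 0.697. Of the 11 granule genes tested Clu, which encodes clusterin, was the 1 that did (0.807). Vwf, the gene of von Willebrand factor, which endothelial cells also make, had 0.651, and F13a1, the factor XIII A chain, which monocytes also make, had -0.23 at 919 to 2064 CPM. Of the 12 genes of the megakaryocyte list, mostly transcription factors, Gata1, the GATA factor of the erythroid and megakaryocyte lineages, was the 1 that did (0.892), at 0 to 1.75 CPM. Nfe2, which drives platelet release, had -0.08 at 165 to 232 CPM, Fli1 -0.16 and Runx1 0.160. Monocytes and other leukocytes express Fli1 and Runx1 as well. Lists of other cells had a median r with Pf4 both above and below the 0.473 of the 61 genes. Above it were neutrophil (0.5725), erythroid (0.555) and T and NK cell genes (0.510). Below it were B cell (0.438), basophil and mast cell (0.1585), monocyte (0.101) and smooth muscle genes (-0.3575). Endothelial genes other than the members had -0.0726.

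Genes most like Selp and Pecam1 were others. For Selp the 5 highest included Epg5 (r = 0.961), Dcaf8 (0.933), Col11a2 (0.924) and Rab3gap2 (0.923), with r of 0.694 to 0.853 without the 2 libraries farthest from the median of Selp. For Pecam1 they included Sbf1 (0.944), Igfbp4 (0.943), Sh2d3c (0.940) and Gimap4 (0.931), with 0.846 to 0.916. The r of these 8 genes with Pf4 ran from 0.281 to 0.516, and 0 of the 8 belonged to the platelet lists.

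**Figure D5:**
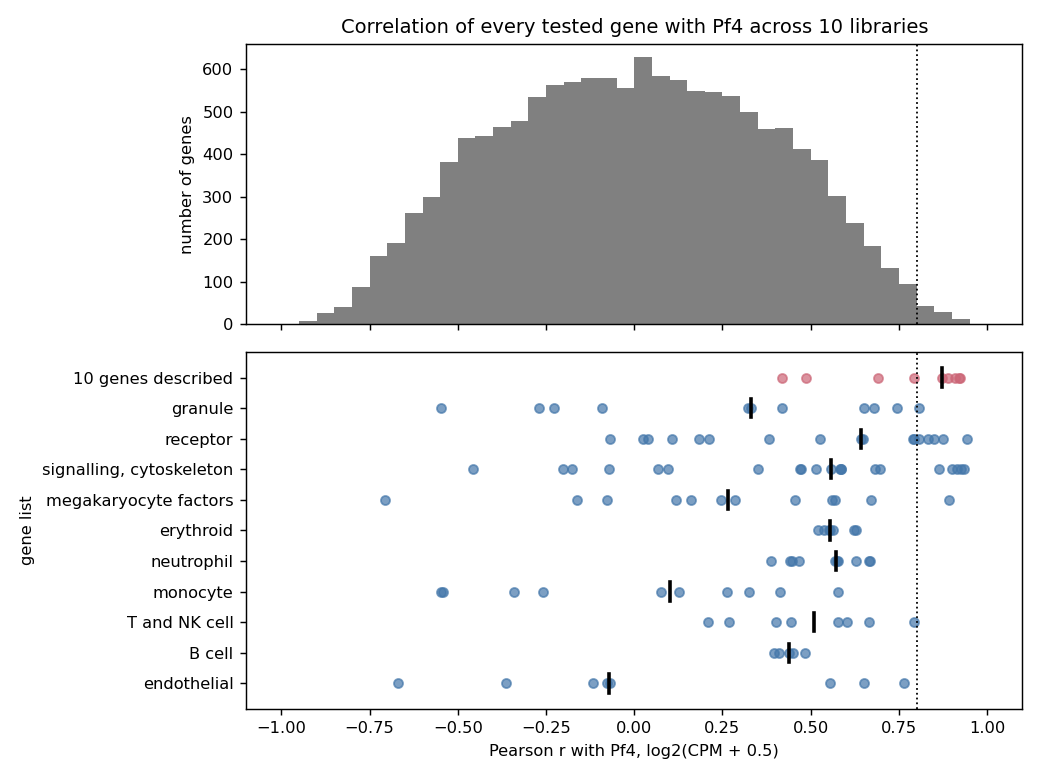
Top, number of tested genes by Pearson's r with Pf4 over 10 libraries; bottom, r of each tested gene of the platelet and cell type lists, 1 point per gene, with a black bar at the list median and a dotted line at 0.8. Of the lists of other cells none has a gene at or past 0.8, and 5 of the 9 members shown in red lie past it.

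Marker levels of other cells also differed between libraries, and their relation to Pf4, Selp and Pecam1 was computed for 30 pairs of a gene and a library measure. By Pearson's r 0 of 30 passed after adjustment (8 at an unadjusted p under 0.05) and by Spearman's rho 1 (8 unadjusted), in permutation tests. For Pf4 the closest measure was the mean level of neutrophil markers (r = 0.672, p = 0.0370, adjusted p = 0.139; rho = 0.685, adjusted p = 0.166), and r was 0.429 without stressed replicates 1 and 2. The erythroid level had r = 0.602 (adjusted p = 0.220; rho = 0.539, adjusted p = 0.377), and r was 0.793 without stressed replicates 3 and 4. T and NK cell markers had r = 0.569 (adjusted p = 0.237; rho = 0.491, adjusted p = 0.381), monocyte markers -0.194 (adjusted p = 0.823; rho = -0.479, adjusted p = 0.381) and the total count of the library -0.0265 (adjusted p = 0.941; rho = -0.0424, adjusted p = 0.919). Without the 2 libraries farthest from the median of each measure, r was 0.437 for T and NK cells, -0.169 for monocytes and -0.169 for the total count. Smooth muscle markers went the other way from Pf4, with r = -0.492 (adjusted p = 0.369) and rho = -0.673 (p = 0.0387, adjusted p = 0.166) by permutation. Their r was -0.550 without non-stressed replicates 1 and 2. Of these 4 genes 2 had reads in all libraries.

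For Pecam1, 6 of the 10 measures had an unadjusted p under 0.05 by Pearson's r. Its level was lower where the monocyte level was higher (rho = -0.915, adjusted p = 0.0168; r = -0.774, adjusted p = 0.1002; r = -0.837 without non-stressed replicates 1 and 4). That monocyte level, a mean on the log2 scale, ran only from 9.30 to 9.55 in non-stressed and from 9.43 to 9.54 in stressed libraries. Pecam1 had r = 0.856 with T and NK cell markers (adjusted p = 0.1002; rho = 0.818, adjusted p = 0.0917; r = 0.843 without non-stressed replicate 2 and stressed replicate 1). That relation passed the threshold without stressed replicate 4 (r = 0.934, adjusted p = 0.0494 by exact permutation). With basophil and mast cell markers r was 0.750 (adjusted p = 0.121; rho = 0.648, adjusted p = 0.185; r = 0.740 without non-stressed replicate 1 and stressed replicate 3). Of those 6 genes only 1, Gata2 (median 2.79 CPM), had reads in all libraries, so that level rested largely on counts near 0. With neutrophil markers r was 0.729 (adjusted p = 0.121; rho = 0.709, adjusted p = 0.162; r = 0.803 without stressed replicates 1 and 2). With B cell markers r was 0.730 (adjusted p = 0.121; rho = 0.770, adjusted p = 0.130), and with the endothelial markers other than Pecam1, Selp and Vwf 0.680 (adjusted p = 0.139; rho = 0.709, adjusted p = 0.162). Of all 19 endothelial genes only 7 had reads in all libraries. The mean log2 level used here ran only from 0.236 to 0.583 in non-stressed and from 0.234 to 0.551 in stressed libraries. The part of the cells of these 6 measures in the level of Pecam1 was not tested. For Selp 1 of the 10 measures had an unadjusted p under 0.05, the neutrophil level (r = 0.674, adjusted p = 0.123; rho = 0.370, adjusted p = 0.552), and r was 0.140 without stressed replicates 1 and 2.

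The summed levels of those markers, non-stressed before stressed, were 92.7 to 164 and 100.6 to 175 CPM for 19 endothelial genes, 1333 to 2781 and 1173 to 5529 CPM for 9 erythroid genes and 796 to 2411 and 1043 to 2228 CPM for 10 neutrophil genes. For lymphocytes they were 68.1 to 344 and 86.0 to 210.5 CPM for 5 B cell genes and 14.4 to 83.8 and 8.89 to 58.3 CPM for 8 T and NK cell genes. Basophil and mast cell genes (6) summed to 1.49 to 8.04 and 0.888 to 7.39 CPM, smooth muscle genes (4) to 8.42 to 17.4 and 11.8 to 18.1 CPM, and fibroblast genes (5) to 0 to 0.209 and 0 to 0.458 CPM. Cnn1, Dcn and Lum had 0 reads in all libraries.

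Between stressed and non-stressed libraries 0 of the 10 genes passed edgeR's quasi-likelihood test with Benjamini-Hochberg adjustment over 13334 genes, in which 0.0075% of all genes (1 gene) did. At an unadjusted p under 0.05 the count was also 0 of 10 in either direction, against 2.59% of all genes higher, 2.95% lower and 5.53% in all, and DESeq2 called 0 of the 10. Log2 fold changes were above 0 for 9 of 10, against 50.9% of all genes, with a median of 0.42 against 0.004. Since the 8 genes vary together, these 9 directions are not independent of each other. Of the markers of other cells, 7 of 7 erythroid genes tested had higher values in the stressed libraries (5 at an unadjusted p under 0.05, 0 after adjustment, median log2 fold change 0.72), as were 7 of 10 neutrophil genes (1 unadjusted, 0 adjusted, median 0.24). In the other direction, 5 of 5 B cell genes (median -0.28), 6 of 8 T and NK cell genes (median -0.60) and 6 of 10 endothelial genes (median -0.05) were lower, with 0 of these at an unadjusted p under 0.05. Of the 10 monocyte genes 5 were higher and 5 lower (1 unadjusted, 0 adjusted). The part of these cells in the differences of the platelet genes was not tested.

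Itga2b averaged 45.7 ± 25.2 CPM (SD, n = 5) in the non-stressed and 66.7 ± 26.0 CPM (SD, n = 5) in the stressed libraries, and its difference by edgeR was 0.55 on the log2 scale (SE 0.34, 95% interval -0.18 to 1.28, adjusted p = 0.943, edgeR). Pf4 averaged 15.2 ± 8.17 CPM in the 5 non-stressed and 21.9 ± 8.56 CPM in the 5 stressed libraries (SD), and its difference was 0.53 (SE 0.33, 95% interval -0.18 to 1.24, adjusted p = 0.943, edgeR). Among the others, edgeR gave log2 fold changes of 0.61 for Gp1ba, 0.42 for Gp9, 0.41 for Gp6, 0.31 for Ppbp, 0.31 for Treml1 and 0.25 for Itgb3, with adjusted p from 0.9501 to 0.966. Selp had 1.305 (SE 0.82, 95% interval -0.45 to 3.06, adjusted p = 0.943, edgeR), with 2 of 5 stressed libraries above and 3 of 5 below all non-stressed ones. It was 0.23 without stressed replicate 1. Pecam1 was the 1 gene with a value below 0, at -0.36 (SE 0.31, 95% interval -1.02 to 0.30, adjusted p = 0.9501, edgeR). With a library left out it ran from -0.53 to -0.18, the latter without stressed replicate 5, and it was -0.22 without non-stressed replicate 2. For 0 of the 10 genes were the groups free of overlap, against 1.09% of all genes.

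For the 8 genes the fold change depended on non-stressed replicates 3, 4 and 5 and stressed replicates 1 and 2. Leaving out non-stressed replicate 3 gave the highest value for each of the 8, for example 0.83 for Pf4 and 0.86 for Itga2b. The lowest values were 0.30 for Pf4 and 0.20 for Gp1ba without stressed replicate 1, 0.07 for Itgb3 and 0.23 for Gp9 without stressed replicate 2, 0.17 for Gp6 and 0.12 for Treml1 without non-stressed replicate 4, and 0.10 for Ppbp and 0.35 for Itga2b without non-stressed replicate 5. Of the 61 other platelet and megakaryocyte genes tested, 39 were higher and 22 lower, where 50.9% of all genes were higher, and the median log2 fold change was 0.12. Of the 61, 0 passed the threshold over all genes and 4 had an unadjusted p under 0.05, a share close to the 5.53% of all genes. Those with such a p were Thbs1, the granule glycoprotein thrombospondin-1 (log2 fold change 0.93), Rasgrp2 (0.23), Fermt3 (0.13) and Tgfb1 (-0.16), named after their values were seen. Their adjusted p in edgeR ran from 0.830 to 0.886.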

How the data were processed

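RNA-seq of 10 libraries was used. Per the submitters' processing notes, reads were handled with Trimmomatic, STAR and featureCounts on mm10; the sources used here give no annotation or strand setting. Values in the deposited table are raw counts for Ensembl genes, with no normalization; 48058 of 48526 identifiers matched a symbol, and coordinates are from GENCODE M21 (GRCm38, the same assembly as mm10). CPM here is a count over the plain library total.

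The 10 genes, the gene lists and the tests were chosen with earlier results of these data known. Groups and replicate numbers came from the sample titles. The test across genes was the quasi-likelihood test of edgeR 4.0.16, run in R 4.3.3 (filterByExpr with a minimum count of 10, TMM factors, group as the only term, Benjamini-Hochberg adjustment), and with DESeq2 1.42.0 as an alternative. The standard error is the log2 fold change over the square root of F. Correlations used a pseudocount of 0.5, 100000 permutations over 10 libraries, exact permutation over 9 libraries (362880 orders) or within groups (14400 orders), in Python 3.11.15 with numpy 2.4.6. Both kinds of test were tested on simulated data. There edgeR called 30.8% of genes simulated with a 1.5-fold difference, 54.7% at 2-fold and 71.2% at 4-fold. It called 6 of 12527 genes simulated without a difference. The correlation test called 29 of 29 genes simulated with a shared factor and 1 of 30 without. The shared genes had an identical factor and only counting noise besides. Their result therefore does not show how often weaker correlations, such as those of the real genes, would be called. Libraries of a group differed by more than sampling noise (chi-square per degree of freedom 22.4 to 70.1).

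Named genes were the 10 members, the 15 genes most correlated with Pf4 and the 5 each with Selp and Pecam1 (mean of at least 1 CPM, no predicted genes or pseudogenes), and genes of the platelet lists, of which up to 8 a list by mean level were foreseen. A few genes that this rule names are not reported here. Those named from the lists for their correlation were instead chosen after their values were seen. Alternatives were other factors, pseudocounts and filters, DESeq2, the replicate number as a block, and leaving out each library.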

Additional observations from a re-analysis of the deposited data

Results flagged for a closer look

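In the non-stressed group, replicate 3 stood apart for Itgb3, the beta-3 integrin chain, at 76.7 CPM against 34.3 to 46.5 CPM in the other 4 libraries, a gap of 0.714 of the whole range where Dixon's 95% critical value for 5 samples is 0.71. The 10 genes in 2 groups gave 20 such checks, of which chance flags about 1. The same library was among the 3 highest of all 10 for each of the 8 genes from Pf4 to Treml1.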

How the results depend on the processing

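All 140 alternative log2 fold changes of the 10 genes kept their sign, and 0 passed the threshold (lowest adjusted p = 0.321). The number of genes called over the whole table was 1 in edgeR as reported; DESeq2 gave 19, edgeR with all genes kept 10, edgeR with the replicate block 4, and leaving out a library 1 to 2, for causes that were not tested. With the replicate number as a block the fold change of Selp was 0.08 and that of Itga2b 0.65, and r with Pf4 ran from 0.411 to 0.954 for the 7 other genes of the group of 8 and from 0.0376 to 0.533 for Selp and Pecam1; its exact test over 32 sign changes cannot go below 0.0625. Same-numbered libraries had deviations correlated at -0.027 to 0.156, over 0.1 in 4 of 5 pairs, and 3 of 5 matched their own number best. These values do not settle whether the numbers pair samples, and the main tests did not treat them as pairs. The count of 7 genes correlated with Pf4 was 5 to 7 with a library left out, and 6 with TMM-scaled CPM, a pseudocount of 1 or group means subtracted, each time without Gp9. The share of genes with r of 0.8 or more with Pf4 was 0.638% to 2.03% with a library left out. Relations with library measures passing were 0 to 1, an alternative added after the data were seen. Low counts limit Selp most, with 4 reads in 1 library.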
